A study of Mus musculus with 8 samples.

Results

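The TRIM family other than Trim72 was examined in crypt organoids of the mouse small intestine that overexpressed MG53, the protein encoded by Trim72, and in organoids of wild type (WT) littermates. Members were the genes whose mouse symbol is Trim followed by a number, without Trim72, together with Pml and Mid1. The annotation held 70 such genes, and 45 of them had a transcription start or end entry in at least 1 sample, among 13706 genes in all with such an entry. RNA sequencing had been carried out on 4 WT and 4 MG53-TG organoid samples, with no further treatment named. MG53-TG mice carry a global MG53 transgene, whose promoter is not given in the sources used here, and the study names the mice behind its organoid transcriptome both this way and as MG53;Lgr5 and Lgr5, lines that carry a knock-in reporter at Lgr5, so that all 8 samples may carry it. The age of the mice was not given either, and nothing says whether the 4 samples of a group came from separate mice or cultures, so p-values measure the spread between these samples, which may be technical.

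TRIM proteins are mostly E3 ubiquitin ligases. They share an N-terminal tripartite motif made of a RING finger, which recruits the ubiquitin-loaded E2 enzyme, 1 or more B-box zinc fingers, and a coiled coil through which the proteins assemble, and they differ in the C-terminal domain that chooses the substrate. Many members are induced by interferon and restrict viruses or tune innate immune signalling, others read chromatin, bind microtubules or sit in the membranes of organelles. MG53 belongs to the same family and is best known for membrane repair in muscle.

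Values are FPKM, a fragment count divided by transcript length and by the size of the library, so that levels of different genes are compared per length. Depth is unknown, since read counts were not used here. The summed FPKM over start entries was between 269837 and 273797 in WT and between 269094 and 284330 in MG53-TG samples. Trim72 served as the check of the labels: no WT sample listed it, and MG53-TG samples 1 to 4 held 16.4, 27.4, 31.9 and 36.5 FPKM. Over all genes, 10707 were tested on log2(FPKM + 1) and 4816, or 45.0%, passed an adjusted p of 0.05 in limma, with 29.3% lower and 15.7% higher in MG53-TG. Across the genes tested the median log2 fold change was -0.17, and it moved to -0.01 with median-of-ratios scaling and to -0.05 with quantile normalization, which put 50.4% and 44.9% of the calls on the higher side against 34.9% without them. Markers of cell types moved with the genotype. Summed over 4 stem cell markers the level was 297 to 437 FPKM in WT and 29.5 to 166 FPKM in MG53-TG, over 4 proliferation markers 356 to 393 against 115 to 282 FPKM, and over 6 enterocyte markers 378 to 474 against 7018 to 9077 FPKM. Of these, 3 of 4 stem cell, 3 of 4 proliferation and 6 of 6 enterocyte markers were called. The epithelial markers Epcam, Cdh1, Vil1 and Krt8 summed to 1372 to 1591 FPKM in WT and 1283 to 1448 FPKM in MG53-TG, with 1 of the 4 called higher and 2 lower. Paneth cell markers, 4 of 4 lower, went from 1031 to 1406 FPKM in WT to 249.9 to 441 FPKM in MG53-TG, goblet cell markers, 3 of 5 lower, from 411 to 455 FPKM to 121 to 325 FPKM, and enteroendocrine markers, 3 of 4 higher, from 140.4 to 156 FPKM to 292 to 378 FPKM. Of the immune markers only Cd68 was tested, and it was lower, while the leukocyte gene Ptprc did not exceed 0.000508 FPKM in any sample. Mesenchyme markers were at 0 in WT and summed to 0 to 4.63 FPKM in MG53-TG, and the 2 that were tested, Col1a2 and Col3a1, passed the filter only through the MG53-TG samples. MG53-TG sample 1 had no entry for either, and its values were set to missing, so both tests rest on MG53-TG samples 2 to 4. In such bulk samples, fewer cells of a type and less RNA per cell cannot be told apart.

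Of the 45 members, 36 had a mean of at least 0.5 FPKM and were tested. In MG53-TG organoids 9 were lower, 8 were higher and 19 did not pass the threshold, while median-of-ratios scaling and quantile normalization each gave 6 lower and 11 higher, where 20.4% and 23.6% of all genes were lower and 20.8% and 19.2% higher. The 17 members called are 47.2% of those tested, against 45.0% of all genes, a share near the background. The lower calls made up 25% of members against 29.3% of all genes, and the higher calls 22.2% against 15.7%. The values of WT and MG53-TG samples did not overlap in all 17 members called and in Trim3, which makes 18 of 36, or 50%, against 44.7% of all genes. The members had a median log2 fold change of -0.0039 beside -0.17 for all genes. Of the 8 members called higher, 5 had a WT mean under 0.5 FPKM and entered the test only through the MG53-TG samples, so that they had to differ to be tested at all; these were Trim30d, Trim12a, Trim40, Trim38 and Trim80.

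**Figure D1:**
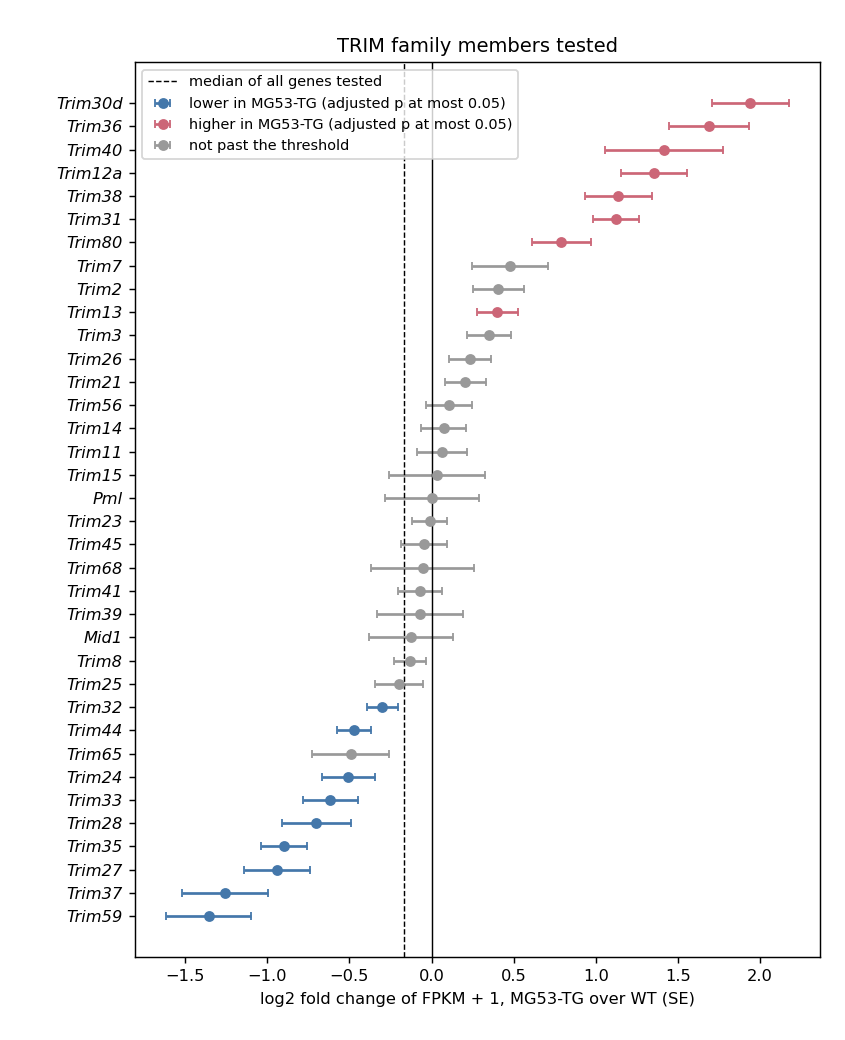
Log2 fold change of FPKM + 1 in MG53-TG over WT organoids (points, x axis) with its standard error (bars) for the 36 TRIM family members tested, 4 samples per group. The values run from -1.36 for Trim59 to 1.94 for Trim30d, and the dashed line marks the median of all genes tested, -0.17.

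All 3 members of the chromatin group that were measured were lower, where 29.3% of all genes were, and 2 of the 3 were under median-of-ratios scaling, quantile normalization and the replicate block. These are Trim28, Trim33 and Trim24, which join the tripartite motif to a PHD finger and a bromodomain. Trim28, also known as KAP1, is the corepressor that KRAB zinc finger proteins recruit to silence retroelements, and at chr7:12999114-13031035 (GRCm38, GENCODE M21, plus strand) it was the most abundant member. Its level was 70.3, 57.0, 59.4 and 59.6 FPKM in WT samples 1 to 4 and 50.01, 48.5, 30.6 and 26.1 FPKM in MG53-TG samples 1 to 4. The lowest WT sample lay above the highest MG53-TG sample, and MG53-TG samples 3 and 4 lay well below samples 1 and 2. The mean was 61.6 ± 5.92 (SD, n = 4) against 38.8 ± 12.2 FPKM, a log2 fold change of -0.70 with SE 0.21 (limma adjusted p = 0.0242), and a two-sided exact permutation test gave p = 0.0286, the smallest that 4 against 4 samples allow. Without WT replicate 1 or MG53-TG replicate 3 Trim28 no longer passed the threshold, the highest adjusted p being 0.0654, and without MG53-TG replicate 3 Trim33 alone of the 3 kept its call.

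Trim33, a regulator of Smad4 and TGF-beta signalling at chr3:103279293-103358775, was tightly grouped in WT at 9.66, 10.1, 9.61 and 9.35 FPKM. In MG53-TG it was 7.61, 7.32, 4.21 and 5.31 FPKM. No MG53-TG sample reached the WT range, and the WT mean was 1.58 times that of MG53-TG (log2 fold change -0.62, SE 0.17, limma adjusted p = 0.0161). Trim24, a nuclear receptor coregulator at chr6:37870811-37966296, was 15.4, 15.3, 18.5 and 19.7 FPKM in WT and 13.8, 14.5, 10.7 and 8.92 FPKM in MG53-TG. Its groups were separated by less than 1 FPKM between the closest samples, and its log2 fold change was -0.51 (SE 0.16, limma adjusted p = 0.0329). The call was lost under median-of-ratios scaling, quantile normalization and the replicate block. It was also lost without WT replicate 3 or 4 or MG53-TG replicate 3 or 4, the highest limma adjusted p in all being 0.087.

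The largest decreases among members were those of Trim59 and Trim37, both placed in the group of membrane or organelle bound proteins. Trim59, a ligase anchored in the membrane of the endoplasmic reticulum (chr3:69035288-69044755, minus strand), was at 12.5, 12.8, 14.7 and 13.5 FPKM in WT and at 6.43, 7.003, 3.95 and 2.34 FPKM in MG53-TG. Its WT mean was 2.71 times that of MG53-TG (log2 fold change -1.36, SE 0.26, limma adjusted p = 0.00318). Trim37, a ligase of peroxisomes and centrosomes whose loss causes mulibrey nanism in people (chr11:87127077-87220683), was at 12.8, 13.1, 13.2 and 11.7 FPKM in WT and at 7.03, 7.04, 3.78 and 2.49 FPKM in MG53-TG. The WT mean was 2.50 times that of MG53-TG (log2 fold change -1.26, SE 0.26, limma adjusted p = 0.00488). For both genes every MG53-TG sample was below every WT sample and samples 3 and 4 were the lowest. The end entry that the files list under Trim37 (chr11:87250591-87250872) lies outside the annotated gene, and with end entries alone Trim37 did not pass (adjusted p = 0.217). Of the other members of the group, Trim13, which takes part in protein degradation at the endoplasmic reticulum, was higher, and Trim23, whose C-terminus is an ARF-type GTPase, was at 2.38 ± 0.0735 FPKM in WT and 2.36 ± 0.254 FPKM in MG53-TG (SD, n = 4).

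Trim27, Trim35, Trim44 and Trim32 completed the members called lower. Trim27, which ubiquitinates the endosomal WASH complex (chr13:21179445-21194724), was measured by its end entries at 19.1, 30.2, 31.6 and 36.1 FPKM in WT and 13.5, 18.5, 12.2 and 14.1 FPKM in MG53-TG. WT replicate 1 was the lowest of its group and came within 1 FPKM of the highest MG53-TG sample, while the WT mean was 2.01 times that of MG53-TG (log2 fold change -0.94, SE 0.20, limma adjusted p = 0.00567). Trim35, at chr14:66297031-66311424, was 7.61, 6.36, 6.96 and 7.16 FPKM in WT and 3.49, 4.18, 3.29 and 2.41 FPKM in MG53-TG, a log2 fold change of -0.90 (SE 0.14, limma adjusted p = 0.00128). The gap between its groups was wider than the range within either.

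Trim44, which has no RING finger and carries a ubiquitin-binding zinc finger of the kind found in deubiquitinases, was 8.64, 8.82, 9.14 and 8.72 FPKM in WT and 6.88, 5.31, 6.26 and 5.97 FPKM in MG53-TG. Its log2 fold change was -0.47 (SE 0.10, limma adjusted p = 0.00604). Trim32, an NHL-domain ligase mutated in limb girdle muscular dystrophy, was 9.43, 9.86, 10.6 and 9.91 FPKM in WT and 8.55, 8.09, 7.32 and 7.67 FPKM in MG53-TG (log2 fold change -0.30, SE 0.09, limma adjusted p = 0.0309). The groups did not overlap for either gene. Both calls were lost under median-of-ratios scaling and quantile normalization, and that of Trim32 in 10 of 19 alternatives in all, the log2 fold change of Trim32 being -0.13 at its smallest.

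**Figure D2:**
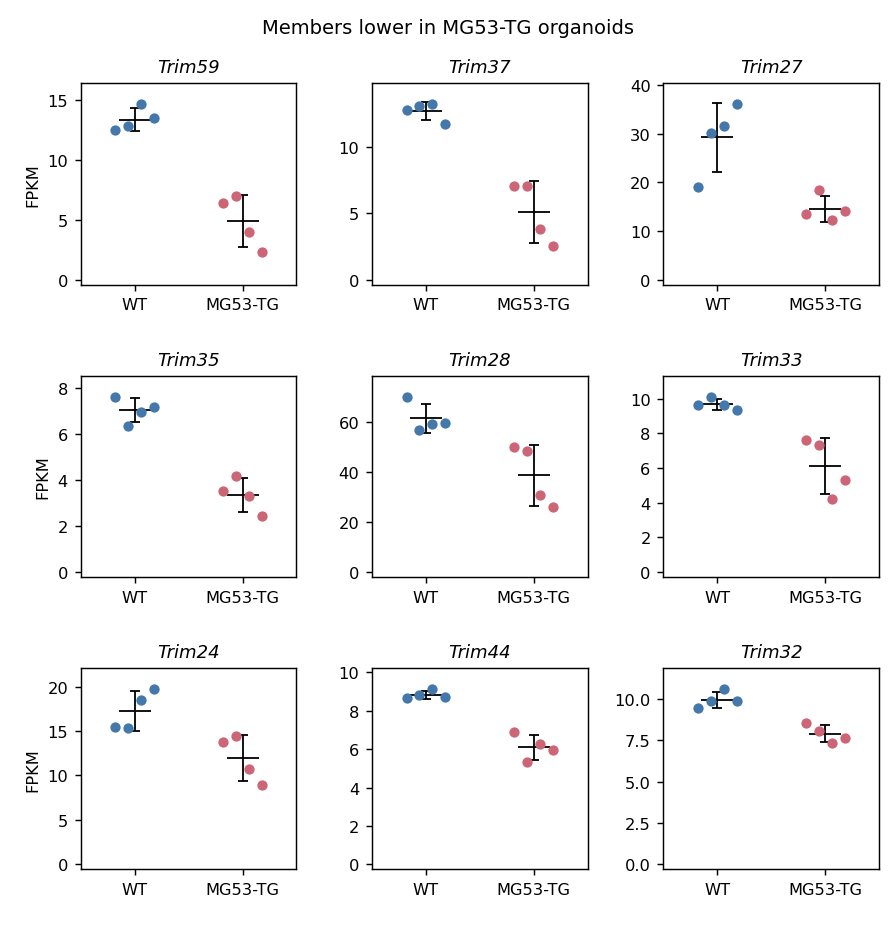
FPKM (y axes, from 0) of the 9 members called lower, in 4 WT (blue) and 4 MG53-TG (red) samples drawn from replicate 1 on the left to 4 on the right, with mean and SD (black). No MG53-TG sample reaches the WT range in any panel, and in 7 of the 9 genes samples 3 and 4 are both below samples 1 and 2.

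Among the members called lower, MG53-TG samples 3 and 4 were both below samples 1 and 2 in 7 of 9, and the same order held in 60.3% of all genes called lower. The proliferation marker Mki67 had this order as well, with 28.3, 32.6, 12.6 and 5.77 FPKM in MG53-TG samples 1 to 4 against 56.6 to 70.7 FPKM in WT. The stem cell marker Lgr5 had samples 3 and 4 below samples 1 and 2 too, at 18.6, 20.5, 7.90 and 9.25 FPKM against 40.5 to 54.0 FPKM. Of the members called higher, Trim13, Trim30d, Trim31, Trim36, Trim38 and Trim40 had MG53-TG samples 3 and 4 both above samples 1 and 2, while Trim12a and Trim80 did not. No share over all genes is given for that order. The part of the cell type markers' shifts in the lower or the higher members was not tested.

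On the log2(FPKM + 1) scale the largest increase was that of Trim30d (with a pseudocount of 0.1 it was that of Trim38), in the cluster of antiviral TRIM genes on chromosome 7, which spans 317 kb (chr7:104218793-104535361) and holds 11 family genes, 6 of them with an entry. Trim30d, a paralogue of Trim30a (chr7:104470014-104507849, minus strand), was at 0.0561, 0.498, 0.586 and 0.398 FPKM in WT and at 2.47, 3.95, 5.68 and 5.63 FPKM in MG53-TG. The mean of MG53-TG samples was 11.5 times that of WT, on the log2(FPKM + 1) scale a fold change of 1.94 (SE 0.23, limma adjusted p = 0.000295). Trim12a, a relative of the retroviral restriction factor Trim5 (chr7:104299894-104315466, minus strand), was at 0.211, 0.187 and 0.298 FPKM in WT samples 1 to 3, lacked an entry in WT sample 4, and reached 1.53, 2.002, 3.36 and 1.39 FPKM in MG53-TG (log2 fold change 1.35, SE 0.20, limma adjusted p = 0.000926). For both genes the lowest MG53-TG sample was more than 4 times the highest WT sample.

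Other genes of the chromosome 7 cluster were under the filter. Trim5 had no entry in WT and 0.9704 and 0.834 FPKM in MG53-TG samples 2 and 3, with samples 1 and 4 set to missing. Trim34a was at 0.301 to 0.750 FPKM in WT, and by end entries at 0.299 to 0.683 FPKM in MG53-TG samples 1, 3 and 4, with none in sample 2, which had a start entry of 0.448 FPKM, so its groups overlapped. Trim6 was at 0.114 to 0.151 FPKM in WT samples 1 to 3 and had no entry elsewhere. The entry listed under Trim12c was found in MG53-TG sample 3 alone, at 0.616 FPKM, and lies on the strand opposite the gene. Entries on the boundaries of Trim12c itself are listed under the neighbouring identifier Gm27995, and gave 0.683, 0.819, 1.18 and 0.702 FPKM in WT and 1.55, 1.03, 2.13 and 1.54 FPKM in MG53-TG. These groups overlapped by 1 sample of each (two-sided exact permutation p = 0.0571), while limma with genes assigned by exon boundaries gave a log2 fold change of 0.47 and an adjusted p of 0.0427. Some genes of this cluster are close copies. As a percent of the longer protein of each pair, Trim12c and Trim5 were 94.4% identical, Trim34a and Trim34b 97.9%, and Trim30d and Trim30a 82.5%, and of the 297 residues of the shorter Trim12a 93.3% were identical to Trim5. Fragments of these genes may have been divided between copies, and their levels are uncertain. Trim6 shared 52.5% with its nearest relative, Trim34b.

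The promoters of this cluster are shown because many TRIM genes are interferon targets, a class whose promoters often hold the interferon response core GAAANNGAA. In the RefSeq windows of 300 bases (250 before and 50 after a start, GRCm38.p6), searched for GAAANNGAA on both strands, 8.56% of 32851 windows held a match. The match is in capitals and, except in Trim21, stands as the reverse complement, TTCNNTTTC, on the strand of each gene. The window of Trim30d is chr7:104507800-104508099 and that of Trim12a is chr7:104315446-104315745, both on the minus strand.
Trim30d: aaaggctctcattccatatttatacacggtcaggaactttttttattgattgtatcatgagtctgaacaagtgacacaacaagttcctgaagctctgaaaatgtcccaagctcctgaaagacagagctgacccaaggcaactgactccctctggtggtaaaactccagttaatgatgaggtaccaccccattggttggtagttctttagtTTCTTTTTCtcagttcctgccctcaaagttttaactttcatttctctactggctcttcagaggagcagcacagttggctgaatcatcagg
Trim12a: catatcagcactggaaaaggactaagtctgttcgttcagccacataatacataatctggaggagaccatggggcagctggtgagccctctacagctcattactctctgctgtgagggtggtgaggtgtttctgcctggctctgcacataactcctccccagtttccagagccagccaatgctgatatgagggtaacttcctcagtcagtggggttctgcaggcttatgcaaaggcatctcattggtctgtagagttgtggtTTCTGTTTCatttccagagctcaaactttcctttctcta

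The 49 bases around the match were shared between copies. In this stretch Trim30d and the upstream window of Trim30a did not differ, and neither did Trim12a and Trim5, whereas Trim12c differed from both at 2 bases. Trim30a had no entry in any sample and Trim5 was under the filter, within the limits that close copies set. The stretches of Trim5 (chr7:104288126-104288174), Trim12c (chr7:104353349-104353397), Trim30a (chr7:104465200-104465248) and Trim34a (chr7:104244448-104244496) follow.
Trim5: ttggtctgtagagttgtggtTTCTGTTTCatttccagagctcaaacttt
Trim12c: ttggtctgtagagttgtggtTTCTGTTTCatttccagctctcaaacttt
Trim30a: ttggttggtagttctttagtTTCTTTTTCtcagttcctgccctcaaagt
Trim34a: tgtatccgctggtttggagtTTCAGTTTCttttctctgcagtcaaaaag

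A match was found for 10 of the 36 members with a window in the table and for 7 of the 28 that were also tested, or 25%, against 9.76% of 27025 gene symbols. By call, it was found in 2 of 7 members called higher, 0 of 7 called lower and 5 of 14 not called. The 5 not called were Trim21, Trim25, Trim26, Trim2 and Trim7, and in Trim2 and Trim7 the match was in 1 of 5 and 1 of 2 windows. Those of Trim21 (chr7:102565441-102565489), Trim25 (chr11:88999374-88999422) and Trim26 (chr17:36836967-36837015) are printed to compare them with the cluster, and Trim21 and Trim26 held a pair of overlapping matches. The window of Trim31 had none, which says only that these letters are not there.
Trim21: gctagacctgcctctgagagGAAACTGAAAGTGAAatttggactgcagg
Trim25: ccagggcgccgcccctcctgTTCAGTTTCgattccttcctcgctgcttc
Trim26: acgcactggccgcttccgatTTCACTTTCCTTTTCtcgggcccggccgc

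On chromosome 17, 6 members lie in order within 651 kb of the major histocompatibility region (chr17:36258873-36910214), and the adjacent pair Trim40 and Trim31 was higher. Trim31, a ligase of the intestinal epithelium known to act on the NLRP3 inflammasome and on the antiviral adaptor MAVS (chr17:36898118-36910214), was at 8.84, 9.24, 9.20 and 8.59 FPKM in WT and 16.4, 18.6, 24.6 and 24.3 FPKM in MG53-TG. The WT samples spread by less than 1 FPKM, and the MG53-TG mean was 2.34 times the WT mean (log2 fold change 1.122, SE 0.14, limma adjusted p = 0.000348). Trim40, a gene of the gastrointestinal tract that restrains NF-kappaB (chr17:36881598-36890123, minus strand), was at 0.0944, 0.322, 0.693 and 0.237 FPKM in WT and 0.722, 2.12, 5.21 and 3.57 FPKM in MG53-TG. Its lowest MG53-TG sample was only just above the highest WT sample, and the log2 fold change was 1.41 (SE 0.36, limma adjusted p = 0.0125).

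The neighbours of Trim31 and Trim40 did not pass. Trim26, reported to act on the interferon regulator Irf3, was at 11.3 ± 0.740 FPKM in WT and 13.6 ± 2.33 FPKM in MG53-TG (SD, n = 4), with a log2 fold change of 0.23 (adjusted p = 0.172, limma). Trim15 was at 1.20 to 3.30 FPKM and 1.36 to 3.57 FPKM, and Trim39 at 1.81 to 3.55 FPKM and 1.61 to 4.39 FPKM. Trim10 had an entry in MG53-TG sample 4 alone, at 0.871 FPKM.

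**Figure D3:**
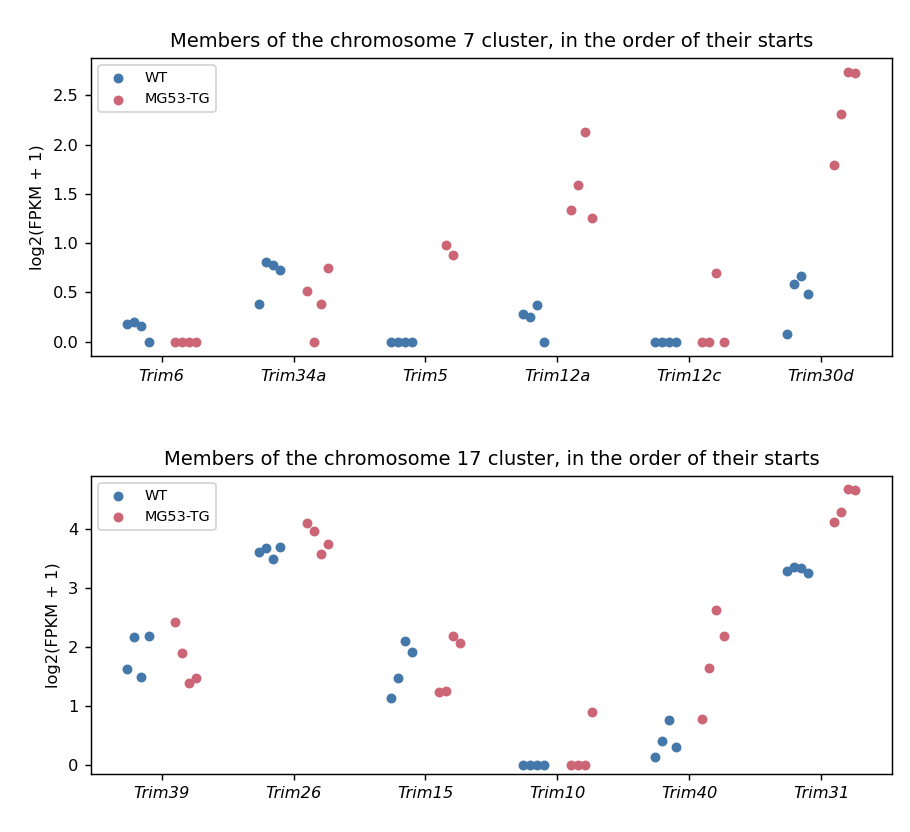
Values as log2(FPKM + 1) (y axes) of the members with an entry in the chromosome 7 and chromosome 17 clusters, in 4 WT (blue) and 4 MG53-TG (red) samples, genes in the order of their starts. Trim12a and Trim30d are separated between groups in the upper panel and Trim40 and Trim31 in the lower one, and Trim5 has 2 MG53-TG points since its other values were set to missing.

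The remaining members called higher came from several groups. Trim36, a microtubule-associated ligase of the COS-box group, rose from 3.61, 2.44, 1.47 and 1.896 FPKM in WT to 8.05, 7.57, 9.15 and 14.7 FPKM in MG53-TG. Its mean was 4.19 times that of WT (log2 fold change 1.69, SE 0.24, limma adjusted p = 0.000781), and MG53-TG sample 4 was the highest. Mid1, the other tested member of that group, which links the phosphatase PP2A to microtubules, was at 0.142 to 1.31 FPKM in WT and 0.102 to 0.957 FPKM in MG53-TG and did not pass (limma adjusted p = 0.711).

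Trim13 was at 1.93, 2.09, 2.25 and 2.71 FPKM in WT and 2.86, 3.11, 3.55 and 3.61 FPKM in MG53-TG, so that its closest samples nearly met. Its log2 fold change was 0.40 (SE 0.12, limma adjusted p = 0.0271), and the call was lost without WT replicate 1, 2 or 3 or MG53-TG replicate 3 or 4, the highest adjusted p being 0.0743. Trim38, a regulator of Toll-like receptor and cytosolic nucleic acid signalling, was listed in none of the WT samples and stood at 0.946, 0.546, 1.99 and 1.61 FPKM in MG53-TG, from end entries alone (limma adjusted p = 0.00238) and was under the filter, so not tested, without MG53-TG replicate 3 or 4. Trim80 had an entry in 1 WT sample, replicate 3, of 0.444 FPKM, and values of 1.22, 0.882, 1.03 and 0.522 FPKM in MG53-TG (limma adjusted p = 0.0072) and was under the filter, so not tested, without MG53-TG replicate 1, 2 or 3. Each MG53-TG sample was above each WT sample for these genes, and no fold is given where a group is listed at 0.

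**Figure D4:**
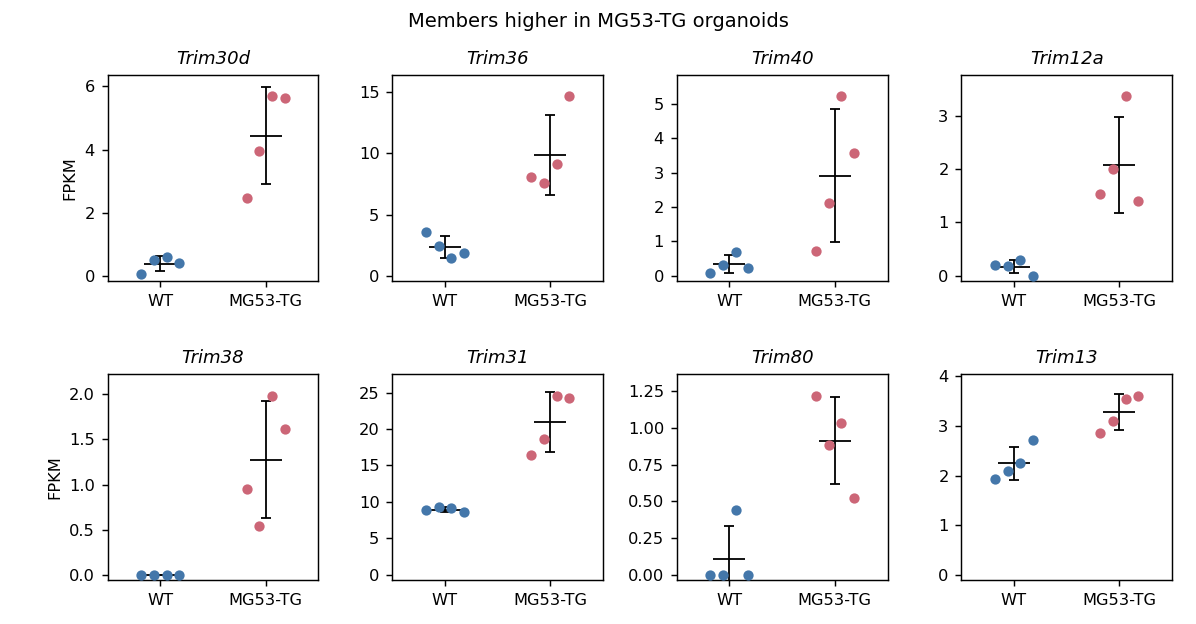
FPKM (y axes, from 0) of the 8 members called higher, in 4 WT (blue) and 4 MG53-TG (red) samples drawn from replicate 1 on the left to 4 on the right, with mean and SD (black). The groups do not overlap in any panel, and a point at 0 is a sample without an entry.

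Outside the chromosome 7 cluster, none of the members grouped as interferon-inducible or antiviral passed the threshold, although Trim26 did so as higher under median-of-ratios scaling and quantile normalization. This holds for the group as listed. It leaves out Trim31, Trim38 and Trim40, described above with roles in innate immune signalling, which were called higher. Trim38 and Trim40 entered the test only through the MG53-TG samples. Trim25, the ligase of the RNA sensor RIG-I, was at 17.96, 19.0, 23.4 and 18.5 FPKM in WT and 16.3, 13.3, 19.4 and 19.6 FPKM in MG53-TG. The groups overlapped, and the log2 fold change was -0.20 (SE 0.15, limma adjusted p = 0.294). Trim14, which lacks a RING finger and takes part in MAVS signalling, was at 7.70 ± 1.43 against 8.10 ± 0.851 FPKM (SD, n = 4). Trim56, a partner of the DNA sensing adaptor STING, was at 4.73 ± 0.709 against 5.16 ± 0.725 FPKM. Trim21, the cytosolic antibody receptor, was at 0.861 to 1.42 FPKM in WT and 1.28 to 1.72 FPKM in MG53-TG, with a log2 fold change of 0.21 (adjusted p = 0.214, limma). Pml, which builds the nuclear bodies named after it, was at 5.16 ± 1.68 against 5.24 ± 1.89 FPKM, with a log2 fold change of 0.00 (SE 0.29). Of the 8 tested members of this group 2 were called higher and 0 lower, where 15.7% of all genes were higher and 29.3% lower, and the 2, Trim12a and Trim30d, passed the filter only through the MG53-TG samples.

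Besides Trim32, 2 NHL members were tested and did not pass. Trim2, a ligase known from neurons and second in mean level over both genotypes, was at 22.7, 23.5, 18.5 and 16.7 FPKM in WT and 32.0, 21.3, 26.7 and 29.4 FPKM in MG53-TG. MG53-TG sample 2 lay within the WT range, and the log2 fold change of 0.41 missed the threshold (SE 0.16, limma adjusted p = 0.0603). Trim3, the closest relative of Trim2 with 65.2% identical residues, was at 1.36, 1.45, 1.31 and 1.46 FPKM in WT and 1.79, 2.84, 1.71 and 1.99 FPKM in MG53-TG. The groups did not overlap, yet the log2 fold change of 0.35 had an adjusted p of 0.0643 in limma. With median-of-ratios scaling or quantile normalization, Trim2, Trim3 and Trim26 passed as higher, and Trim24, Trim32 and Trim44 no longer passed as lower.

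The other members tested, all without a call, had log2 fold changes between -0.49 and 0.48. Trim65 was at 0.8798 to 2.46 FPKM in WT and 0.540 to 1.26 FPKM in MG53-TG (log2 fold change -0.49, SE 0.24). Trim7 was at 0.00365 FPKM in WT sample 1, at 0.618 to 0.818 FPKM in the other WT samples and at 0.566 to 1.55 FPKM in MG53-TG (log2 fold change 0.48, SE 0.23). Trim8 gave a log2 fold change of -0.13, Trim41 of -0.07, Trim68 and Trim45 of -0.05 each and Trim11 of 0.06. Trim8 was at 10.9 ± 0.570 against 9.85 ± 0.897 FPKM and Trim41 at 10.7 ± 1.898 against 10.04 ± 0.229 FPKM (SD, n = 4), and neither passed.

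By mean level over the 8 samples, the order at the top was Trim28 at 50.2, Trim2 at 23.9, Trim27 at 21.9, Trim25 at 18.4 and Trim31 at 14.98 FPKM. In WT alone Trim28, Trim27, Trim2, Trim25 and Trim24 led, with means of 61.6, 29.2, 20.4, 19.7 and 17.2 FPKM, and in MG53-TG Trim28, Trim2, Trim31, Trim25 and Trim27, with 38.8, 27.4, 21.0, 17.1 and 14.6 FPKM. Over the 8 samples the ranges of all neighbours in this order overlapped. Further members under the filter were Trim29, Trim62, Trim46 and Trim63. Trim29, which lacks a RING finger and is known from stratified and airway epithelium, was at 0.607, 0.496, 0.954 and 0.936 FPKM in WT by end entries, and of the MG53-TG samples only sample 2 listed it, at 0.564 FPKM. Trim62 was at 0.561, 0.426 and 0.641 FPKM in WT samples 1, 3 and 4, with the value of sample 2 set to missing, and at 0.526 FPKM in MG53-TG sample 3 alone. The muscle ligase Trim63 did not exceed 0.0292 FPKM in any sample, and Trim46 had an entry in WT sample 2 alone, at 0.855 FPKM. For 25 family genes no entry carried their identifier, among them Trim9, Trim17, Trim54, Trim55, Trim58 and Trim71. For Trim16 this is a matter of naming, since entries on its boundaries are listed under Fbxw10. They gave 5.46, 6.18, 5.23 and 6.67 FPKM in WT and 3.94, 6.11, 7.59 and 7.03 FPKM in MG53-TG, which overlap.

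The rule for members used names alone. A RING consensus (C-x2-C-x(9-39)-C-x(1-3)-H-x(2-3)-C-x2-C-x(4-48)-C-x2-C) was searched in the longest annotated protein of each gene, and 29 of the 36 members tested matched. Among those called, 6 of 9 lower and 7 of 8 higher members matched. The lower members without a match were Trim24, Trim37 and Trim44, and the higher member without one was Trim36, which says only that the spacing searched is not in these proteins. In a global alignment, the members tested were 13.5% to 31.7% identical to Trim72 as a percent of the longer protein, with a median of 21.8%. This measure is held down where a protein is much longer or much shorter than Trim72, which has 477 residues. Trim33, the lowest, shared 154 residues with Trim72 over 1140 of its own, and Trim11, the highest, shared 153. Trim40, with 246 residues, was at 16.1%.

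Partners of the family were taken from lists of pathway genes. Of 34 interferon response genes 19 were tested, of which 3 were higher and 1 lower, where 15.7% of all genes were higher and 29.3% lower. Their median log2 fold change was 0.32 beside -0.17 for all genes. Without a filter 4 of the list were higher and 3 lower, where 13.0% and 23.0% of all genes were. With median-of-ratios scaling 5 of the list were higher, where 20.8% of all genes were. Ifi35, an interferon-induced partner of N-myc interactor, was at 7.52, 8.82, 10.7 and 7.85 FPKM in WT and 19.5, 18.8, 22.9 and 22.3 FPKM in MG53-TG (log2 fold change 1.18, SE 0.13, limma adjusted p = 0.000167). Ifit3, an antiviral RNA-binding scaffold, had 1 entry in WT, of 0.0973 FPKM in sample 4, against 0.753, 1.49, 2.04 and 2.32 FPKM in MG53-TG, through which alone it passed the filter. Irf1, a transcription factor of the interferon response, was at 3.22, 3.02, 1.79 and 2.25 FPKM in WT and 5.69, 4.83, 3.69 and 3.41 FPKM in MG53-TG, which gave a log2 fold change of 0.60 (adjusted p = 0.029, limma). Oas1a, a sensor of double-stranded RNA, moved the other way, from 3.37 to 6.78 FPKM in WT to 0.543 to 1.42 FPKM in MG53-TG (log2 fold change -1.52, limma adjusted p = 0.000573). Irf7, Irf9, Ifit1, Ifih1, Dhx58 and Bst2 did not pass.

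Of the 18 ubiquitin genes that supply E1 and E2 activity, 14 were tested. Of these 3 were lower and none higher, where 29.3% of all genes were lower and 15.7% higher. The 3 lower were Ube2d3, Ube2e1 and Ube2e3, E2 enzymes of the families that many RING ligases use, with log2 fold changes of -0.44, -0.37 and -0.38. The groups of Ube2e3 overlapped. With median-of-ratios scaling none of the list was lower and 3 were higher, where 20.4% and 20.8% of all genes were. Quantile normalization gave 1 lower and 1 higher, where 23.6% and 19.2% of all genes were. With the replicate block 1 was lower, where 26.7% of all genes were. Of the 11 genes of SUMO conjugation and PML bodies, 9 were tested and 4 were lower, where 29.3% of all genes were lower, with a median log2 fold change of -0.54. With median-of-ratios scaling 2 were lower, where 20.4% of all genes were. Senp1, a SUMO protease, was at 10.5, 9.72, 10.6 and 9.88 FPKM in WT and 6.67, 5.75, 3.87 and 2.66 FPKM in MG53-TG (log2 fold change -1.02, SE 0.22, limma adjusted p = 0.00554). Sumo2, the modifier itself, fell from 67.3 to 72.2 FPKM in WT to 36.4 to 54.5 FPKM in MG53-TG (log2 fold change -0.65, limma adjusted p = 0.00569), and Uba2, a subunit of the SUMO E1 enzyme, from 27.96 to 31.5 FPKM to 15.5 to 27.6 FPKM (log2 fold change -0.54, limma adjusted p = 0.0296).

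Skipped exons gave a further readout for 3 members. Inclusion was the FPKM of the event that keeps the exon as a percent of both events, and 1208 exons were tested over all genes. Of these 12, or 0.993%, passed an adjusted p of 0.05 in limma, and 8.86% had groups that did not overlap. In Pml, whose level overlapped between groups, the inclusion of a coding exon of 138 bases (chr9:58230491-58230628, minus strand) was 39.7%, 0.657%, 15.8% and 28.6% in WT and 65.8%, 69.8%, 62.0% and 74.1% in MG53-TG. The mean was 21.2% ± 16.8 against 67.9% ± 5.19 (SD, n = 4). The lowest MG53-TG value lay above the highest WT value (two-sided exact permutation p = 0.0286), but over all exons the limma adjusted p was 0.111, so the difference did not pass. This exon was chosen after its values were seen. Its sequence, read from the GENCODE M21 transcripts, is given whole, since it is the stretch that is kept or skipped.
Pml exon: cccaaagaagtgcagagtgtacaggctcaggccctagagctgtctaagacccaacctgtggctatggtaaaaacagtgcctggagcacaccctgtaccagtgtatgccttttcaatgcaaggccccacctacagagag

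For Trim33, the inclusion of a coding exon of 51 bases (chr3:103353567-103353617) was 48.7% to 60.6% in WT and 37.7% to 78.1% in MG53-TG, and for Trim26 that of an exon of 18 bases (chr17:36854284-36854301) was 7.32% to 32.0% in WT and 3.13% to 22.9% in MG53-TG. Both overlapped between groups, and the spread of Trim33 was wider in MG53-TG, with samples 3 and 4 above and samples 1 and 2 below the WT range. Among start sites, groups overlapped for Trim2 and Trim26. In Trim2, the share of the start at chr3:84270791 was 11.2% to 55.4% in WT and 39.4% to 85.4% in MG53-TG. In Trim26, the upstream start at chr17:36837134, whose window holds the match printed above, took 37.8%, 65.8%, 99.0% and 46.3% in WT and 33.96%, 39.4%, 33.4% and 42.6% in MG53-TG. In Trim28, the start at chr7:13024152 took 87.1% to 88.5% of start FPKM in WT and 71.9% to 85.6% in MG53-TG without overlap. The start of Trim16 at chr11:62820231, listed under Fbxw10, took 23.9% to 42.4% in WT. It took 80.8%, 47.1%, 48.5% and 42.9% in MG53-TG samples 1 to 4, also without overlap, though the closest samples nearly met. At all other start sites compared the groups overlapped. These shares are given as values, with no test over all genes and no count of how many start sites over all genes lack overlap.

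**Figure D5:**
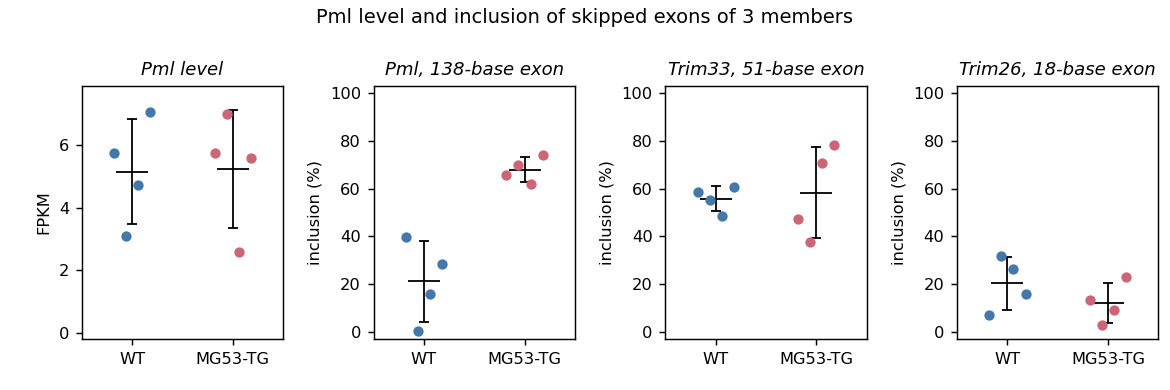
Level of Pml (left, FPKM) and inclusion of the skipped exons of Pml, Trim33 and Trim26 (percent of event FPKM) in 4 WT (blue) and 4 MG53-TG (red) samples, with mean and SD (black). The groups are apart for the Pml exon, at most 39.7% in WT and at least 62.0% in MG53-TG, and overlap in the other panels.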

How the data were processed

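Per the labels and the methods of the study, total RNA of organoids grown in Matrigel was extracted with TRIzol and sequenced. The submitters' processing notes name cutadapt 1.9.1, HISAT2 2.0.1, HTSeq 0.6.1, DESeq2 and the mm10 genome. The authors deposited FPKM for each event of a transcript, by sample, and the tool that made the events is not given in the sources used here. FPKM went down to 1e-06, whole reads were not recovered, and precision rests on 4 samples per group.

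A gene's value was the sum of FPKM over its start entries, or over its end entries where that mean was higher, with genes taken from the identifiers in the files (13732 of 13739 found). On GENCODE M21, 85.3% of 49773 distinct entries lay on an exon boundary of the same gene. An absent value counted as missing if the median of the remaining samples of that genotype was 0.5 FPKM or more, and as 0 otherwise. Genes averaging 0.5 FPKM or more were compared with limma 3.58.1 (lmFit, eBayes with trend, R 4.3.3) on log2(FPKM + 1), with Benjamini-Hochberg adjustment over all of them and a threshold of 0.05. On this scale the change of low genes is understated. Exon inclusion was compared with limma after an arcsine transform, for exons with both events in all 8 samples, whose events together reached 2 FPKM in each sample and whose mean inclusion was 5% to 95%. Coding sequences were translated and aligned (BLOSUM62) with biopython 1.88. Promoters are from RefSeq.

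The members and lists were chosen with earlier results of these data known. Values per sample are given for the 10 largest decreases and increases past the threshold and the 5 most abundant members. Of the partner lists, the 3 largest changes past the threshold in each direction are named, with values per sample, ranges or log2 fold changes. The fits were tested on simulated data. As alternatives, the pseudocount was set to 0.1, the filter was dropped or raised to 2 FPKM, values were scaled by median-of-ratios or by quantiles, a replicate block or sample weights were added, absent values were all set to 0, start or end entries were used alone, genes were assigned by exon boundaries, and each sample was left out. Those for exons were chosen after seeing the data.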

Additional observations from a re-analysis of the deposited data

Results flagged for a closer look

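Of 71 groups of 4 samples, 2 held a sample far from the others, where chance flags about 1 in 20 groups. Trim11 was at 7.02 FPKM in WT replicate 4, against 5.58 to 5.62 FPKM in the other WT samples. Trim80 was at 0.444 FPKM in WT replicate 3 and had no entry in the other WT samples. The entries on the boundaries of Trim12c, which the main comparison does not use since they are listed under Gm27995, had a mean of 1.56 FPKM in MG53-TG against 0.845 FPKM in WT.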

How the results depend on the processing

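Of the 17 members called, 11 passed in every alternative that gave a value, the exceptions being Trim13, Trim24, Trim28, Trim32, Trim37 and Trim44, and none changed direction. The 11 include Trim30d, Trim12a, Trim40, Trim38 and Trim80, which entered the test only through the MG53-TG samples and had to differ to be tested. For these the filter partly fixed the outcome. With a mean of at least 2 FPKM, Trim12a, Trim38, Trim40 and Trim80 were not tested and gave no value. Trim38 and Trim80 also fell under the filter, and gave no value, when some MG53-TG samples were left out. Of the 19 not called, 12 changed sign in some alternative and 3 passed in more than 1. These 3, Trim2, Trim3 and Trim26, passed under both median-of-ratios scaling and quantile normalization, and Trim2 also without MG53-TG replicate 2. Depth is unknown, and 4 samples per group limit the precision. Causes of the changes below were not tested.

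Median-of-ratios scaling moved the members' median log2 fold change to 0.14, the interferon list to 5 higher, the ubiquitin list to 0 lower and 3 higher, the SUMO list to 2 lower, the NHL members to 0 lower and 2 higher, and the members with no RING to 0 lower. Quantile normalization gave a median of 0.14, 1 lower and 1 higher ubiquitin gene, 0 lower and 2 higher NHL members and 0 lower with no RING. With a mean of at least 2 FPKM, which leaves fewer genes, 4 members were higher, 1 of them interferon-inducible and 1 ungrouped, with a median of -0.0683. Without a filter, 3 interferon genes and 2 members with no RING were lower. Dropping the filter added Trim29 as lower and Trim5 as higher, the latter on MG53-TG samples 2 and 3 alone. Trim29 was also called without MG53-TG replicate 1. Sample weights gave a median of 0.0271 and 1 higher ubiquitin gene. Start entries alone gave 2 higher ungrouped members and a median of -0.0391, and end entries alone 1 higher interferon gene, 0 lower NHL members and 1 lower membrane or organelle bound member.

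Leaving out single samples gave a members' median of -0.0506 to 0.0362, 5 to 8 members higher and 6 to 10 lower, with 11 called without MG53-TG replicate 3. It gave 1 to 3 chromatin members lower, 0 to 1 NHL members lower and 0 to 1 higher, 0 to 1 membrane or organelle bound members higher, 1 to 2 with no RING lower and 2 to 4 ungrouped members higher. Interferon genes were 2 to 5 higher and 1 to 2 lower, ubiquitin genes 0 to 1 higher and 1 to 4 lower, SUMO genes 3 to 7 lower, and 5 to 16 skipped exons were called.

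With the replicate block, Trim24 and Trim32 were lost, 15 members, 4390 genes and 0 skipped exons were called in limma, and 1 ubiquitin gene and 0 NHL members were lower. Without the block, 12 skipped exons were called and 137 had an unadjusted p under 0.05. Same-numbered samples deviated together by correlations of 0.0867, -0.011, 0.0956 and -0.04, none over 0.1. With 4 samples per group these correlations cannot show whether same-numbered samples were paired. The study names a paired t test for marker genes of its organoid transcriptome, without saying which samples formed a pair.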
